A study of Mus musculus with 12 samples.

Results

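Measured in the mouse liver line BNL CL.2, the genes described here are 10 genes of the circadian clock and its output. They are Dbp, Tef, Hlf, Per1, Per2, Per3, Nr1d1, Nr1d2, Bhlhe41 and Ciart. Every probe set that named exactly 1 of these symbols was taken, which gave 23 of the 45101 probe sets on the array, and 10 of the 18194 genes compared. The set was chosen by the array values themselves, since it was proposed with the lower Dbp signal under iron in view. The iron differences are therefore given as a description without a test, for each of the 10 genes. The comparisons with and without macrophages, and the interaction of iron with macrophages, were tested. RAW against alone, RAW_FAC against FAC and the interaction reuse arrays of the iron differences, so for Dbp they are not independent of that choice.

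Total RNA from 12 samples, 3 per group, was hybridised to Affymetrix mouse arrays after 24 h of culture. In the group alone, the cells shared the well with an insert that held more BNL CL.2 cells. The group FAC received FAC at 100 micromolar, an abbreviation usual for ferric ammonium citrate, which supplies iron, and the group RAW had RAW 264.7 cells, a mouse macrophage line, in the insert. RAW_FAC had both. The protocol describes an insert for all groups without saying which cells it held in FAC. All values are from 1 cell line at 1 time, so a lower level and a shifted phase of a rhythm cannot be told apart, and neither can fewer expressing cells and less RNA per cell. No label states that the replicates were separate cultures, and the p values then cover only how far these arrays differ, which may be technical.

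The clock of mammalian cells is a feedback loop of transcription. CLOCK and BMAL1 (gene Arntl) bind E-box sequences and switch on the Per, Cry, Nr1d and Dbp genes, among others, and the PER and CRY proteins then block CLOCK and BMAL1. The proteins of Nr1d1 and Nr1d2, REV-ERB alpha and beta, bind heme and repress Arntl. Dbp, Tef and Hlf encode leucine zipper activators that bind D-box sequences and carry the rhythm to genes of liver metabolism and detoxification.

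The RefSeq promoter windows (build GRCm38.p6) show which of these letters lie just before the starts of the 10 genes. The windows held the 250 bases before each start, and 11 windows of 9 genes matched, 2 each for Per1 and Tef. The sequences below were chosen to show the lead gene, the windows with repeated clock motifs, and E-boxes of the other E-box genes. They run 5′ to 3′ on the gene's strand. Capitals mark the E-box CACGTG, or in Per3 the D-box TTATGTAA.
Dbp, chr7:45704997-45705246, plus strand, none of the motifs searched: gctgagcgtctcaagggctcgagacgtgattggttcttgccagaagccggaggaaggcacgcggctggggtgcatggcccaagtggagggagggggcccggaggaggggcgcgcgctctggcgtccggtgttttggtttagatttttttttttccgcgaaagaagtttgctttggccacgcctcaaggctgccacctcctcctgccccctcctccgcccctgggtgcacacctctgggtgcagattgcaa
Ciart, chr3:95882255-95882356, minus strand, 3 E-boxes: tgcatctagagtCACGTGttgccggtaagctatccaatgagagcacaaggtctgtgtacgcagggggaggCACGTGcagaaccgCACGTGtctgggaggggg
Per3, chr4:151044804-151044882, minus strand, 2 D-boxes: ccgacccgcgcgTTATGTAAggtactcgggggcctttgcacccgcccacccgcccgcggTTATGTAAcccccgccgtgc
Per1, chr11:69098771-69098800, plus strand, 1 E-box: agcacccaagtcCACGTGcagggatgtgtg
Tef, chr15:81802534-81802563, plus strand, 1 E-box: gtgctgtggctcCACGTGctgcagctggca
Bhlhe41, chr6:145865556-145865585, minus strand, 1 E-box: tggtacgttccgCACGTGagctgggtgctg

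Both strands were searched. The E-box was found in 5 of the 11 windows, those of Ciart, Per1, Bhlhe41 and both of Tef, and in 6.02% of 32851 mouse windows of the same length. The D-box (TTATGTAA, or TTACATAA on the other strand) was found in 1, that of Per3, against 0.819% of all windows. The element AGGTCA, found in sites that REV-ERB and ROR proteins bind, was found in a window of Per1 and that of Nr1d2, against 14.0%. The form CACGTT was found in the window of Nr1d1, against 3.85%, and the CRE TGACGTCA in that of Hlf, against 1.55%. No match says only that these letters are not in this window.

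On the probe set that carried the fit for each gene, Dbp had the largest difference in each iron and macrophage comparison of 2 groups. In RAW_FAC against RAW this was close, at -0.23 against -0.22 for Nr1d1, and the iron part reflects the choice of Dbp. Other probe sets did not all keep this order, since Hlf 1434736_at was at -0.28 in RAW_FAC against FAC and Dbp at -0.16. The Dbp probe set with the higher mean, 1438211_s_at, carried the fit. It read 8.31, 8.21 and 8.24 in alone, as log2 RMA signal in replicates 1 to 3, and 7.99, 7.90 and 7.99 in FAC. In RAW it read 8.03, 8.09 and 7.98, and in RAW_FAC 7.93, 7.74 and 7.75. The group alone was highest with no overlap with any other group, and RAW_FAC lay below RAW without overlap. RAW and FAC overlapped, as did FAC and RAW_FAC. The group means were 8.25 ± 0.05, 8.03 ± 0.05, 7.96 ± 0.05 and 7.80 ± 0.11 (SD, n = 3) in alone, RAW, FAC and RAW_FAC.

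With iron and no macrophages the difference of Dbp was -0.29 ± 0.07 (SE of the limma fit, n = 3 per group), a 1.22-fold lower level, with same-number differences of -0.32, -0.30 and -0.24. Beside macrophages it was -0.23 ± 0.07, 1.17-fold lower, with same-number differences of -0.10, -0.36 and -0.24. A same-number difference is taken between the 2 arrays of a pair of groups that carry the same replicate number. Dbp was thus lower with iron in 6 of 6 such pairs. Over the 18194 genes 4% were lower in 6 of 6 and 4.14% higher, 8.13% together, shares from which nothing is read because Dbp was chosen on this contrast. RAW_FAC against alone gave -0.45 ± 0.07, 1.36-fold lower.

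The second Dbp probe set, 1418174_at, read 6.39, 6.37 and 6.48 in alone and 6.18, 6.31 and 6.30 in FAC. It read 6.43, 6.51 and 6.26 in RAW and 6.12, 6.25 and 6.29 in RAW_FAC. FAC lay below alone without overlap, and RAW_FAC overlapped with RAW, since replicate 3 was at 6.26 without and 6.29 with iron. Its iron differences were -0.15 ± 0.08 and -0.18 ± 0.08, without and beside macrophages, and 5 of 6 pairs were lower. The suffix s marks a probe set whose probes can match more than 1 transcript, so the probe set that carried the fit is not certain to read Dbp alone.

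**Figure D1:**
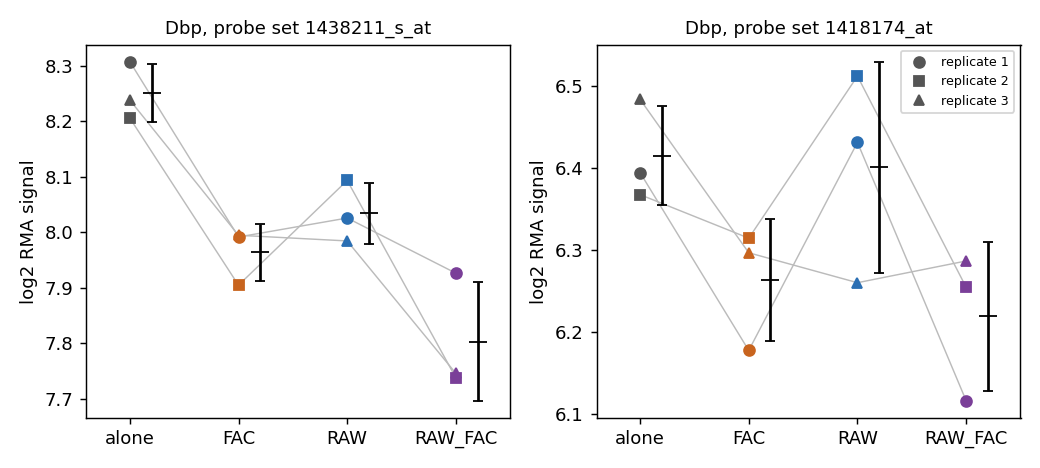
Log2 RMA signal of the 2 Dbp probe sets in the 12 arrays (vertical axis) by group (horizontal axis); symbols mark the replicate number, grey lines join equal numbers, and black bars are group means with SD (n = 3). In the left panel the alone arrays (8.21 to 8.31) sit above the arrays of the other groups, and in the right panel the RAW arrays spread from 6.26 to 6.51.

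Macrophages without added iron went with a Dbp difference of -0.22 ± 0.07, with an unadjusted 95% interval from -0.36 to -0.07 and same-number differences of -0.28, -0.11 and -0.25. The group alone is also the reference of the iron difference on which Dbp was chosen, so this interval is not independent of that choice. Beside iron the difference was -0.16 ± 0.07 (-0.31 to -0.01), with same-number differences of -0.07, -0.17 and -0.25. Dbp was lower with macrophages in 6 of 6 pairs, as were 2.8% of all genes, with 5.89% in either direction. Averaged over both iron conditions the difference was -0.19 ± 0.05, and it did not pass in limma (Benjamini-Hochberg adjusted p = 0.861, or 0.274 with the replicate number as a block). The second probe set gave -0.01 ± 0.08 and -0.04 ± 0.08, with 4 of 6 pairs lower, so the lower level beside macrophages was seen with 1 of the 2 probe sets. With the mean of both probe sets the average difference was -0.11. The interaction, the iron difference beside macrophages minus that without, was 0.06 ± 0.10 for Dbp, with an unadjusted 95% interval from -0.16 to 0.27 and an adjusted p of 1.00.

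None of the 10 genes passed in limma in any tested comparison, with or without the block. The smallest adjusted p was that of Dbp for the average macrophage difference. At an unadjusted p under 0.05 the count was 1 of 10, Dbp, for RAW against alone (all genes 3.81%), for RAW_FAC against FAC (3.15%) and for the average (3.94%), and 0 for the interaction (2.97%). With the block it was 2 for the average, Dbp and Hlf (all genes 7%), and the same as without it for RAW against alone (6.13%), RAW_FAC against FAC (5.61%) and the interaction (4.34%). Over all genes, limma called 0% in RAW against alone, in RAW_FAC against FAC and in the interaction, and 0.011% in the average macrophage difference, or 0.055% with the block. The members' counts of 0 therefore lie near the background of these comparisons. In RAW against alone and RAW_FAC against FAC, the unadjusted count of Dbp is not independent of its choice on the iron differences.

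Without overlap between the groups, 2 of the 10 fitted probe sets were lower in FAC than in alone, those of Dbp and Nr1d2, and 0 were higher. Of all genes 3.82% were lower and 3.74% higher in this way. In RAW_FAC against RAW 1 was lower, Dbp, and 0 higher, against 5.27% and 4.48% of all genes. In RAW against alone 2 were lower, Dbp and Hlf, and 0 higher (all genes 3.61% and 5.16%), and in RAW_FAC against FAC 1 was higher, Per1, and 0 lower (3.63% and 3.02%). In either direction the shares of all genes were 7.56%, 9.75%, 8.76% and 6.65% in these 4 comparisons. In FAC against alone 9 of the 10 genes were below 0, and in each of the other 3 comparisons 6 were. The median difference of the 10 genes was -0.04 in each of the 4, while the medians of all genes lay within 0.01 of 0. Of all 18194 genes, 9496 were below 0 in FAC against alone and 9098 in RAW_FAC against RAW. In RAW against alone 9140 were, and in RAW_FAC against FAC 8380. Of the 23 probe sets of the members, 15 were below 0 in FAC against alone and 8 above. Nothing is read from the iron counts, since the set was chosen with iron in view.

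**Figure D2:**
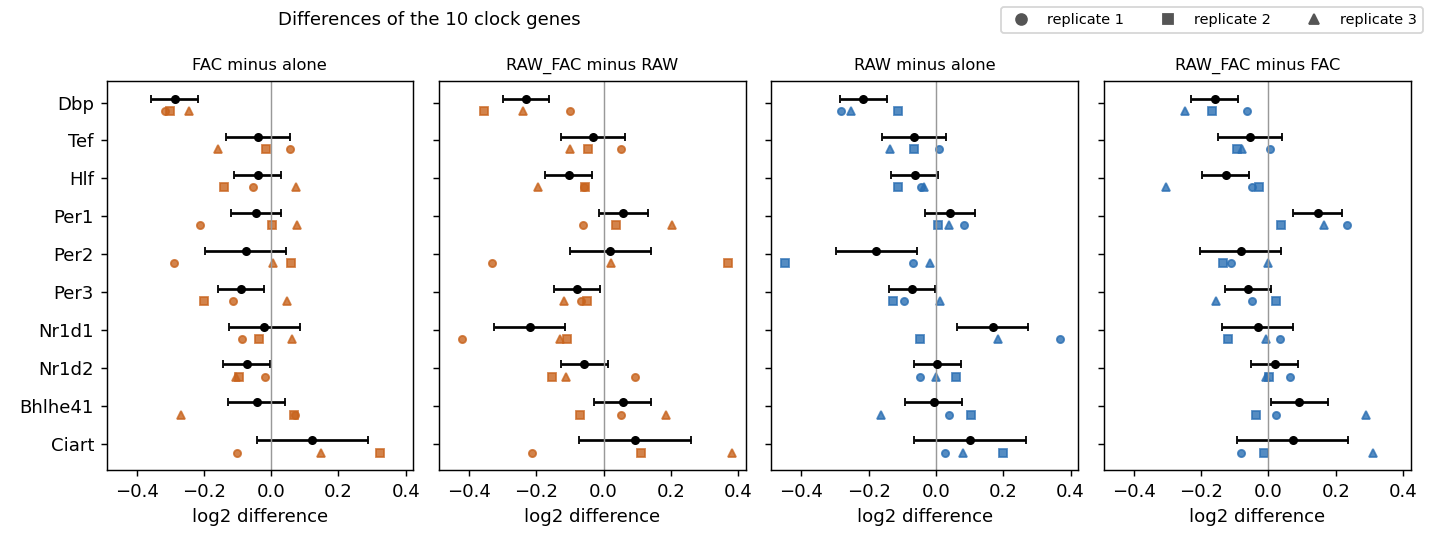
Log2 differences of the 10 genes (horizontal axis) in the 4 comparisons of 2 groups; black points and bars are the limma difference with its SE (n = 3 per group), and coloured symbols below them are the 3 same-number differences. Dbp lies left of 0 in each panel with its 12 same-number differences, while of the other 9 genes 8 lie below 0 in FAC minus alone, where Ciart is above it, and the fitted differences lie on both sides of 0 in the other panels.

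On the fitted probe sets, the D-box activators other than Dbp had smaller differences. Tef read 9.44, 9.30 and 9.47 in alone, 9.50, 9.28 and 9.31 in FAC, 9.45, 9.23 and 9.33 in RAW, and 9.50, 9.19 and 9.23 in RAW_FAC. All 4 groups overlapped, and in FAC, RAW and RAW_FAC replicate 1 was the highest array. Its differences were -0.04 ± 0.10 and -0.03 ± 0.10 with iron, and -0.06 ± 0.10 in both macrophage comparisons. With the replicate number as a block their SE was 0.06. The other 2 probe sets of Tef differed by between -0.09 and 0.08 in these comparisons.

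Hlf read 5.38, 5.35 and 5.34 in alone, 5.33, 5.21 and 5.42 in FAC, 5.34, 5.23 and 5.31 in RAW, and 5.28, 5.18 and 5.11 in RAW_FAC. RAW lay just below alone without overlap, and so did RAW_FAC, at -0.17 ± 0.07 against alone. The groups overlapped in FAC against alone, RAW_FAC against RAW and RAW_FAC against FAC. Its average macrophage difference was -0.10 ± 0.05 with 6 of 6 pairs lower (adjusted p = 1.00 in limma, 0.713 with the block). The second Hlf probe set gave -0.11 ± 0.12 and -0.28 ± 0.12 in RAW against alone and RAW_FAC against FAC. The mean of Hlf over the 12 arrays was below 6.82, the median of all gene means, as were those of Per2, Per3, Nr1d1 and Bhlhe41. These 5 of the 10 genes were left out by the alternative filter on low values.

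Of the Per genes, which encode the repressors of the loop, Per1 read 7.02, 7.02 and 6.94 in alone, 6.81, 7.02 and 7.01 in FAC, 7.10, 7.03 and 6.98 in RAW, and 7.04, 7.06 and 7.18 in RAW_FAC. RAW_FAC was above FAC without overlap, by 0.15 ± 0.07, and that difference was 0.08 without FAC replicate 1. Per1 was higher with macrophages in 6 of 6 pairs, as were 3.09% of all genes, but the average of 0.09 ± 0.05 did not pass in limma (adjusted p = 1.00, 0.771 with the block). Its iron differences were -0.04 ± 0.07 and 0.06 ± 0.07, of opposite sign.

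Per2 spanned 6.20 to 6.71 over the 12 arrays, with 6.66, 6.65 and 6.42 in alone, 6.37, 6.71 and 6.42 in FAC, 6.59, 6.20 and 6.40 in RAW, and 6.26, 6.57 and 6.42 in RAW_FAC. The 4 groups overlapped. The fitted probe set was lower with macrophages in 6 of 6 pairs, the smallest of them by less than 0.01. Its difference in RAW against alone, -0.18 ± 0.12, was -0.08 without RAW replicate 2, and -0.01 without it in the fit with the block. The other 2 Per2 probe sets, 1457350_at and 1417603_at, gave 0.11 ± 0.06 and 0.01 ± 0.10 there. For 1457350_at RAW lay above alone without overlap, opposite in sign to the fitted probe set. It was lower in RAW_FAC than in RAW without overlap, at -0.14 ± 0.06.

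Per3, with D-boxes in its promoter window as printed above, had 6 probe sets, the most of the 10 genes. The one that carried the fit read 5.79, 5.73 and 5.69 in alone, 5.68, 5.53 and 5.74 in FAC, 5.70, 5.60 and 5.70 in RAW, and 5.63, 5.56 and 5.58 in RAW_FAC. RAW_FAC lay below alone without overlap, as for 4.36% of all genes (4.67% were higher, 9.03% either), and the 4 single-factor comparisons overlapped. The iron differences were -0.09 ± 0.07 and -0.08 ± 0.07, with 5 of 6 pairs lower. The macrophage differences were -0.07 ± 0.07 and -0.06 ± 0.07. The other 5 probe sets of Per3 did not move together: 1421087_at was at -0.21 ± 0.08 in FAC against alone and 1421086_at at 0.04 ± 0.13, while 1441445_at was lower with macrophages in 6 of 6 pairs, at -0.15 ± 0.06 (adjusted p = 1.00). The remaining probe sets, 1460662_at and 1458176_at, differed by between -0.08 and 0.05 in the 4 comparisons, each with an SE of 0.09.

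In the REV-ERB genes the largest differences rested on 1 array. Nr1d1 read 5.98, 5.94 and 5.77 in alone, 5.90, 5.90 and 5.84 in FAC, 6.35, 5.89 and 5.96 in RAW, and 5.93, 5.78 and 5.83 in RAW_FAC. RAW replicate 1 stood above the other 11 arrays. The difference of RAW_FAC against RAW was -0.22 ± 0.11 with that array and -0.08 without it, and that of RAW against alone was 0.17 ± 0.11 with it and 0.03 without it.

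Nr1d2 read 10.87, 10.94 and 10.86 in alone, 10.85, 10.84 and 10.75 in FAC, 10.82, 10.99 and 10.86 in RAW, and 10.91, 10.84 and 10.74 in RAW_FAC. FAC lay below alone by a narrow margin without overlap. The iron differences were -0.07 ± 0.07 and -0.06 ± 0.07, and the average macrophage difference was 0.01 ± 0.05, with an unadjusted 95% interval from -0.09 to 0.12. The second Nr1d2 probe set, 1416959_at, spanned 0.77 over the 12 arrays and differed by -0.06 ± 0.14 and -0.17 ± 0.14 with iron, and by -0.04 ± 0.14 and -0.15 ± 0.14 with macrophages.

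Bhlhe41 (DEC2) and Ciart (CHRONO) encode further repressors of CLOCK and BMAL1. The fitted probe set of Bhlhe41 ranged from 5.17 to 5.46 with overlap in all 4 comparisons and differences between -0.04 and 0.09. Its second probe set was higher with macrophages in 6 of 6 pairs, at 0.15 ± 0.08 on average (adjusted p = 1.00 in limma over all probe sets). Ciart, whose promoter window holds the 3 E-boxes printed above, had the widest range of the 10 fitted probe sets, 0.77. It read 6.93, 6.99 and 7.05 in alone, 6.83, 7.32 and 7.20 in FAC, 6.96, 7.19 and 7.13 in RAW, and 6.75, 7.30 and 7.51 in RAW_FAC. In each group replicate 1 was the lowest array. Its iron differences were 0.12 ± 0.17 and 0.09 ± 0.17 and went both ways among pairs, from -0.21 to 0.38. With the replicate number as a block their SE was 0.11.

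**Figure D3:**
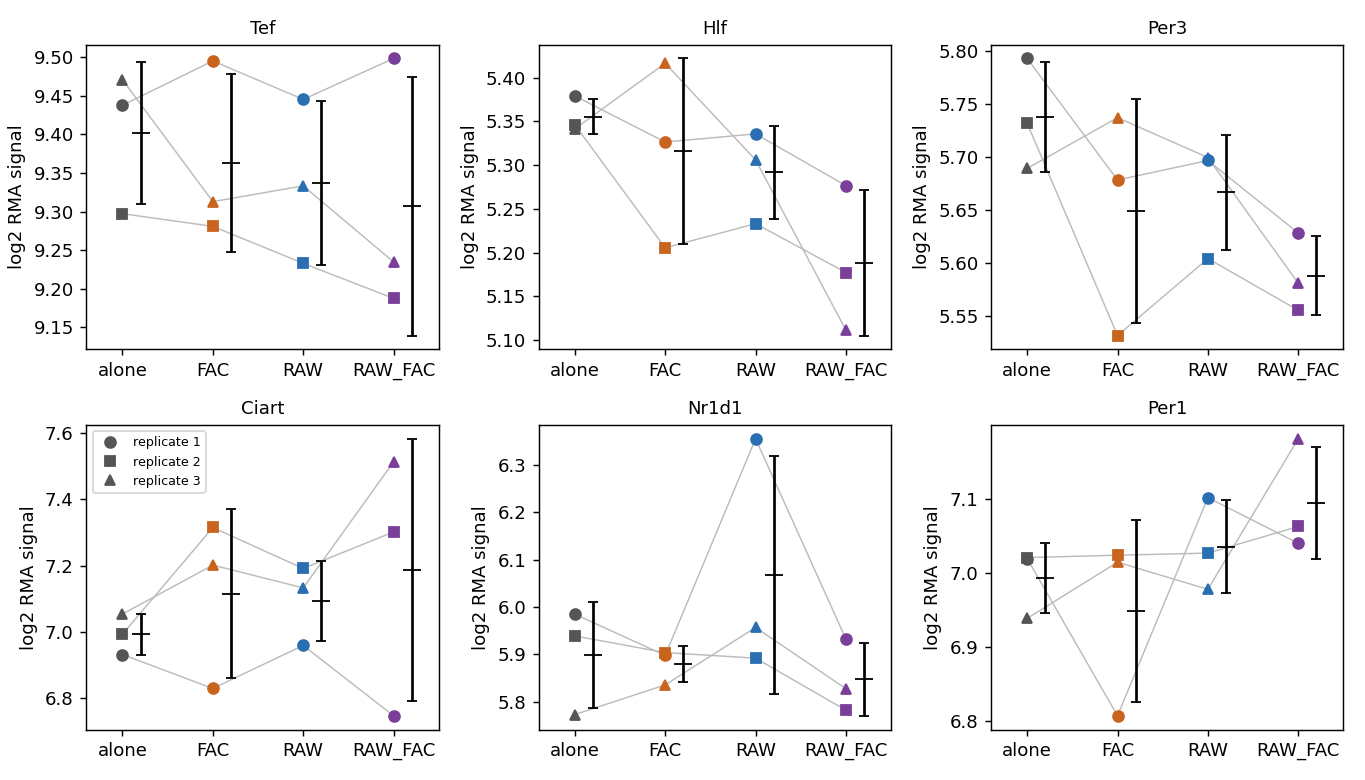
Log2 RMA signal (vertical axes, which differ between panels) of Tef, Hlf, Per3, Ciart, Nr1d1 and Per1 in the 12 arrays by group; symbols mark the replicate number, grey lines join equal numbers, and black bars are group means with SD (n = 3). Ciart replicate 1 is the lowest array of each group, and RAW replicate 1 of Nr1d1 stands alone at 6.35.

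Ciart and Tef had the smallest p values of the 10 genes for the replicate number, and neither passed. Ciart was at 6.75 to 6.96 in the 4 arrays numbered 1, 6.99 to 7.32 in those numbered 2 and 7.05 to 7.51 in those numbered 3. Tef was at 9.44 to 9.50, 9.19 to 9.30 and 9.23 to 9.47. In a limma F test of the replicate number, chosen after these values were seen, Tef had an adjusted p of 0.0502 and Ciart of 0.0518. None of the 10 genes passed, against 10.6% of all genes, and the other 8 had an adjusted p of 0.175 or above. The titles do not say what the numbers stand for.

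Over the 12 arrays the 45 pairs of members correlated between -0.85 (Tef with Ciart) and 0.89 (Hlf with Per3), with a median Pearson's r of 0.05. Dbp had r = 0.76 with Per3, r = 0.74 with Hlf and r = -0.53 with Ciart. After each replicate number's mean was removed these were 0.81, 0.75 and -0.60. Per3 and Hlf had means below the median of all gene means and spanned only 0.26 and 0.31 over the 12 arrays. The r of Per3 holds for its fitted probe set, and its other probe sets did not move together. The 12 arrays fall into 4 treated groups and share normalization, so the values describe these arrays, and no p is given.

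**Figure D4:**
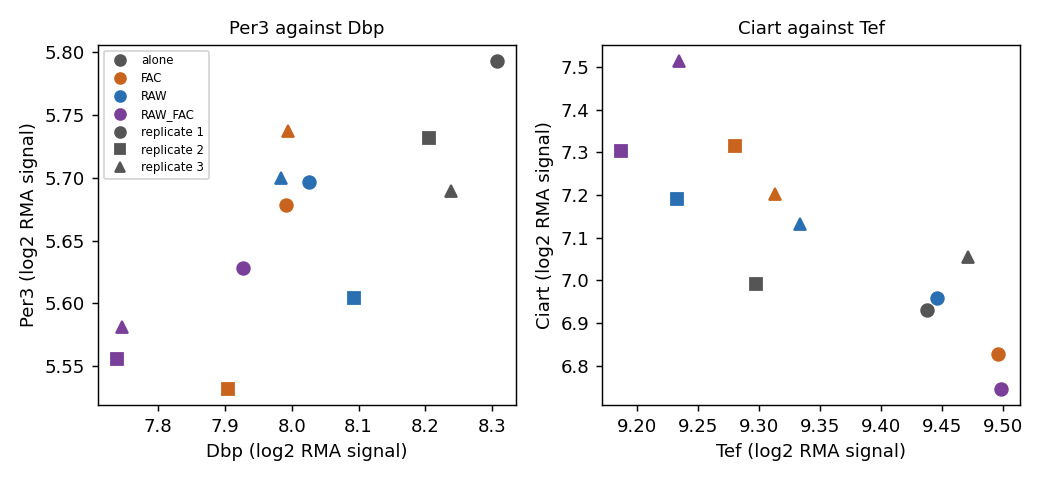
Log2 RMA signal of Per3 against Dbp (left) and of Ciart against Tef (right) in the 12 arrays; colour marks the group and the symbol the replicate number. Per3 and Dbp are both high in alone and low in RAW_FAC (r = 0.76), and the arrays numbered 1 lie at high Tef and low Ciart (r = -0.85).

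The genes whose pattern was most like that of Dbp were sought among the 9096 other genes with a mean at or above the median. Over the 12 arrays Ndufc2, Ltn1, Prps2, Yeats2 and Pura had the highest Pearson's r, from 0.83 to 0.82, and Ube2q1, Ctage5, Nrtn, Wdr59 and Eomes the lowest, from -0.89 to -0.82. After each replicate number's mean was removed, Tm4sf4 had r = 0.99 with Dbp, followed by Krt18, Eno3, Tmem65 and Scel at 0.94 to 0.90. Tm4sf4 encodes a membrane protein of the tetraspanin-like family, and Krt18 a keratin of simple epithelia. The lowest were Ccl20, a chemokine gene, at -0.92, then Ino80, Rbm43, Ube2q1 and Hpx, which encodes the heme carrier hemopexin, down to -0.905. The group means of Tm4sf4 were 13.54 in alone, 13.43 in FAC, 13.47 in RAW and 13.36 in RAW_FAC, the order of Dbp, and those of Ccl20 were 9.11, 9.80, 9.45 and 10.40.

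The loop's other genes came from a list of 27 entries, of which 24 were measured here. Of these 24, 0 passed in limma in either direction in the average macrophage difference, with or without the block. At an unadjusted p under 0.05 there was 1 of 24, Cry2 (all genes 3.94%), or 2 with the block, Cry2 and Csnk1e (all genes 7%). The median average macrophage difference of the 24 was 0.00, against 0.01 over all genes, and their median iron differences were -0.02 and -0.01. Without overlap 0 of 24 differed between FAC and alone (all genes 7.56%), and in RAW_FAC against RAW 1 was lower, Rorb, and 1 higher, Fbxl21 (all genes 5.27% and 4.48%).

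Arntl, which encodes BMAL1, read 8.18, 8.16 and 8.08 in alone, 7.79, 8.47 and 8.24 in FAC, 8.16, 8.54 and 8.17 in RAW, and 7.88, 8.45 and 8.15 in RAW_FAC. Its groups overlapped and its differences lay between -0.13 and 0.15. Clock, its partner, differed by -0.07 ± 0.07 and -0.09 ± 0.07 with iron, and Npas2, which can stand in for Clock, by 0.06 ± 0.08 and 0.05 ± 0.08. The repressors Cry1 and Cry2 differed by -0.01 ± 0.11 and 0.07 ± 0.08 in FAC against alone, and Cry2 was lower with macrophages in 6 of 6 pairs, at -0.13 ± 0.05 on average (adjusted p = 1.00, 0.493 with the block). Nfil3, a repressor that competes for D-boxes, differed by 0.11 ± 0.10 and 0.27 ± 0.10 with iron, with 1 of 6 pairs lower. Nfil3 was lower in RAW than in alone without overlap. Bhlhe40 and Rora differed by -0.07 ± 0.09 and 0.16 ± 0.08 in FAC against alone.

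Genes known to follow the clock or its D-box factors were 23 measured of 27 listed. Of the 23, 0 passed in limma in the average macrophage difference, with 1 at an unadjusted p under 0.05, Noct (all genes 3.94%), or 6 with the block (all genes 7%), Nampt, Klf10, Noct, Pparg, Cirbp and Dtx4. Their median iron differences were 0.02 and 0.00. The iron differences ranged from -0.25 to 0.40 in FAC against alone and from -0.30 to 0.27 in RAW_FAC against RAW. Without overlap 2 of 23 were higher in FAC than in alone, Pdxk and Ppara, and 0 lower (all genes 3.74% and 3.82%). In RAW_FAC against RAW 2 were higher, Ppara and Elovl3, and 1 lower, Klf10 (all genes 4.48% and 5.27%). The genes described next are not those with the largest iron differences of the list. Noct, which encodes the rhythmic phosphatase nocturnin, was lower with iron in 6 of 6 pairs, at -0.12 ± 0.07 and -0.08 ± 0.07, and higher with macrophages in 6 of 6, at 0.14 ± 0.05 on average (adjusted p = 1.00, 0.486 with the block). Ppara, a nuclear receptor gene of fatty acid use, was higher with iron without overlap in both comparisons, at 0.16 ± 0.07 in each. Pdxk, a D-box target that makes pyridoxal phosphate, differed by 0.14 ± 0.07 and 0.07 ± 0.07.

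The third list held 14 genes that carry or respond to glucocorticoid, cAMP or serum signals, which can reach Per1 and Per2. All 14 were measured. Of them 0 passed in limma in the average macrophage difference. At an unadjusted p under 0.05 there was 1, Egr1 (all genes 3.94%), or 2 with the block, Fos and Egr1 (all genes 7%). Their median average macrophage difference was -0.02. Their median iron differences were 0.02 in both comparisons, with 8 and 9 of the 14 above 0, so the genes named next, which were lower, are not typical of the list. Nr3c1, the glucocorticoid receptor gene, read 10.27, 10.34 and 10.19 in alone, 10.05, 10.15 and 10.10 in FAC, 10.23, 10.16 and 10.13 in RAW, and 9.98, 10.07 and 10.03 in RAW_FAC. It was lower with iron without overlap both without and beside macrophages, by differences of -0.17 ± 0.06 and -0.15 ± 0.06. Without overlap 2 of the 14 were lower in FAC than in alone, Nr3c1 and Egr1, and 0 higher (all genes 3.82% and 3.74%). In RAW_FAC against RAW 1 was lower, Nr3c1, and 0 higher (all genes 5.27% and 4.48%). Egr1, an immediate early gene that serum induces, differed by -0.55 ± 0.14 and -0.38 ± 0.14, with 6 of 6 pairs lower. Fkbp5 and Tsc22d3, which glucocorticoids induce, differed by 0.12 ± 0.10 and 0.05 ± 0.12 in FAC against alone.

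Tfrc, the transferrin receptor gene that iron lowers, differed by -1.25 ± 0.21 in FAC against alone and by -1.20 ± 0.21 beside macrophages, with 6 of 6 pairs lower. Of 12 macrophage marker genes 0 passed in limma in the average macrophage difference. At an unadjusted p under 0.05 there were 0, or 1 with the block (all genes 3.94% and 7%). In RAW_FAC against FAC 0 passed, with 2 at an unadjusted p under 0.05, Ptprc at -0.22 ± 0.09 and Cybb at 0.16 ± 0.07, or 3 with the block (all genes 3.15% and 5.61%). Their summed linear signal was 4560 to 5071 in alone, 4538 to 5159 in FAC, 4517 to 4802 in RAW and 4859 to 5327 in RAW_FAC, so that RAW_FAC lay above RAW without overlap. Of the 12, 3 were kept by the filter on low values, and the part of these markers in the results above was not tested. Of 7 measured hepatocyte markers 3 were kept by that filter, of 5 biliary markers 3, and of 6 fibroblast markers 0. The summed linear signal of the biliary markers was 17557 to 19025 in alone and 17534 to 17993 in FAC. It was 15772 to 17536 in RAW and 16548 to 17208 in RAW_FAC, lower with macrophages without overlap in both comparisons. The sums of hepatocyte and of fibroblast markers overlapped there. Of the 5 biliary markers 0 passed in limma in the average macrophage difference. The part of this list in the results above was not tested. The difference between the 3′ and 5′ probe sets of Gapdh, a sign of RNA integrity, is given on the log2 scale. It was -0.03 to 0.09 in alone, -0.05 to 0.06 in FAC, -0.05 to 0.09 in RAW and -0.03 to 0.11 in RAW_FAC. In each group replicate 3 had the highest and replicate 2 the lowest of these values. For beta-actin it was 0.36 to 0.41 in alone, 0.38 to 0.41 in FAC, 0.33 to 0.42 in RAW and 0.32 to 0.40 in RAW_FAC.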

How the data were processed

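Expression was read on 12 Affymetrix arrays, 3 in each of 4 groups. The authors deposited log2 signals. The submitters' processing notes name RMA and affy, whose versions were not given in the sources used here. Array medians lay between 5.63 and 5.68, and the values were used as deposited. The number of arrays limits the precision.

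Probe sets with 1 symbol in the platform annotation (34958 of 45101) were kept, and each gene was fitted on its probe set of highest mean, which gave 18194 genes. A model with 1 mean per group was fitted with limma 3.58.1 in R 4.3.3, with Benjamini-Hochberg adjustment over all genes and a threshold of 0.05, two-sided. Intervals are unadjusted 95% intervals. The 18 same-number pairs of arrays correlated in their residuals at 0.26 to 0.53, so the replicate number in the titles also served as a block. On simulated data for the average macrophage difference (18194 genes), the fit without the block recovered 44%, 88%, 100% and 100% of genes changed by 0.25, 0.5, 1 and 2, and called 10 unchanged genes. With the block these were 38%, 86%, 100% and 100%, with 12 unchanged genes called. The simulated noise was independent between arrays, without the same-number correlation above, so these shares are not recovery rates of the data themselves.

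All 23 probe sets of the 10 genes are reported. Some of the probe sets that did not carry the fit are given only by their difference in part of the comparisons. Named list genes were the core loop genes, those past the threshold, and genes chosen after their values were seen (Csnk1e, Rorb, Fbxl21, Noct, Nampt, Klf10, Pparg, Cirbp, Dtx4, Ppara, Pdxk, Elovl3, Nr3c1, Egr1, Fos, Fkbp5, Tsc22d3, Ptprc, Cybb). The 5 genes at each end of the correlation with Dbp follow a stated rule. The members and lists were chosen with earlier results of these data known. Promoters are RefSeq's (GRCm38.p6), matched by symbol for 9 of the 10 genes, not for Per2.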

Additional observations from a re-analysis of the deposited data

How the results depend on the processing

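The counts of called members (0 in each of the 4 tested comparisons) and of other clock genes (0) stayed at 0, and the Dbp iron differences kept their sign, in 224 of 224 recomputed values. This is no sign of stability, since the counts are at their floor and Dbp was chosen on its iron differences. The alternatives were the replicate block, array weights, the compared groups only, a filter on low values, centring, quantile normalization, other probe set choices, other moderation, and each array left out without and with the block. Over these the Dbp iron difference ran from -0.32 to -0.22 without macrophages and from -0.29 to -0.17 beside them. The replicate block left the Dbp iron differences at -0.29 and -0.23 and changed no call. The smallest adjusted p of any member was 0.155, for Dbp in the average macrophage difference without RAW_FAC replicate 1 and with the block. Of 2378 values of single members 14 moved by more than the residual SD, 11 of them with the mean of all probe sets of a gene.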
